A study of Mus musculus with 35 samples.

Results

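Primary mouse cardiac fibroblasts (CFs) treated with TGF-β were compared between 2 siRNAs against the same transcript, IAMP-siR-2 (siR-2) and IAMP-siR-1 (siR-1). Both target 4930523C07Rik, the mouse gene that encodes the micropeptide IAMP. The comparison rests on 6 of the 35 RNA-Seq libraries of the series, 3 with siR-2 and 3 with siR-1, chosen by their labels and not by any measured value. A further 3 libraries of TGF-β-treated CFs carried a scrambled siRNA (Scrambled), and the same 3 groups of 3 libraries exist for untreated and for IL-17-treated CFs. The CFs came from hearts of adult mice, were kept if they adhered to collagen-coated plates and were grown in serum-containing medium. All cells of the comparison had received both an siRNA and TGF-β. The labels give neither the strain nor the exact age of the mice, and no duration or dose of TGF-β. They also do not say whether the 3 libraries of a group came from separate cultures, so p values measure the spread between these libraries, which may be technical.

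An siRNA is a short RNA duplex that guides the cleavage of a matching transcript, and 2 siRNAs with different sequences against 1 transcript share the intended target while each can also act on other transcripts. TGF-β is the main inducer of the myofibroblast, a fibroblast that makes contractile actin filaments and large amounts of collagen. It binds a pair of receptor kinases, which phosphorylate SMAD2 and SMAD3. These enter the nucleus with SMAD4 and act on genes for matrix proteins, contractile proteins and feedback inhibitors of the pathway. The direct contrast answers how far the transcriptomes under the 2 siRNAs lay apart in these cells. Values are siR-2 minus siR-1 throughout, so a positive log2 fold change means a higher level with siR-2. Levels are given as CPM, estimated counts scaled to a common library size by the TMM method, in which a gene can be compared between libraries but not with another gene, because transcript length is not divided out.

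The 9 libraries of the TGF-β table held 104139670 to 108379622 estimated counts each, of which mitochondrial transcripts made up 2.87 to 3.67%. On log2 CPM, libraries of 1 siRNA correlated at a Pearson r of 0.9928 to 0.9954, and a siR-1 with a siR-2 library at 0.9835 to 0.987 (across genes, which are not independent replicates). The groups separated on the first 2 principal components. The library siR-2 replicate 1 differed more from the other siR-2 libraries than they did from each other, with a chi-square per gene of read pairs of 5.19 and 6.28 against 3.77, and it held 2.87% mitochondrial transcripts against 3.39 and 3.35%. In these files 1 read pair appears as about 6 estimated counts, so the floor of detection, 3 read pairs, was set at 18 estimated counts, and it covers counting error only. Fibroblast markers were present, with *Ddr2* at 228 against 222 CPM (siR-1 against siR-2), *Tcf21* at 119.7 against 91.1 CPM and *Dcn* at 2417 against 2797 CPM, and the 12 markers together summed to 16500 to 16900 CPM for siR-1 and 17510 to 18330 CPM for siR-2. Of 8 cardiomyocyte markers, 4 (*Myh6*, *Actc1*, *Mb* and *Pln*) were at or under the floor of detection in all 6 libraries, and the list summed to 4.08 to 5.07 CPM for siR-1 and 3.39 to 3.88 CPM for siR-2. Endothelial markers summed to 125 to 126 and 115 to 122 CPM, macrophage and leukocyte markers to 132 to 148 and 147 to 154 CPM, mesothelial markers to 17.6 to 21.7 and 13.1 to 19.0 CPM and Schwann markers to 8.43 to 9.4 and 9.45 to 10.7 CPM. Of the macrophage markers *Adgre1* (0.49) and *Csf1r* (0.34) were higher with siR-2, while *Ptprc* was at 1.07 against 0.9904 CPM and *C1qa* at 0.439 against 0.465 CPM, neither past the test. In bulk RNA, fewer cells of a type and less of its RNA per cell cannot be told apart.

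The target 4930523C07Rik (ENSMUSG00000090394) lies on chromosome 1 of GRCm38 from 160044382 to 160080208 on the plus strand, in the GENCODE vM21 annotation. It was at 4.66, 4.07 and 4.49 CPM in the 3 siR-1 libraries, 2.92, 3.23 and 3.78 CPM in the 3 siR-2 libraries and 19.4, 19.8 and 22.98 CPM in the 3 Scrambled libraries. All 6 knockdown libraries lay below all 3 Scrambled libraries, and the siR-2 libraries lay below the siR-1 libraries without overlap. The difference between the siRNAs was small beside the knockdown itself (log2 fold change -0.41, SE 0.106, adjusted p = 0.00867, quasi-likelihood F-test of edgeR, adjusted by Benjamini-Hochberg over 19891 genes). It was not past the test without siR-2 replicate 1 (log2 fold change -0.33). The same contrast gave -0.72 in untreated and -0.58 in IL-17-treated CFs.

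Genes were called when the adjusted p was at most 0.05 and the absolute log2 fold change at least 0.585, a 1.5-fold change. With siR-2, 167 genes were called higher and 620 lower than with siR-1, which are 0.840% and 3.12% of the 19891 tested. The lower calls therefore outnumbered the higher ones, although by adjusted p alone the directions were even, with 2386 higher and 2393 lower (12% each). These shares are the background for the counts of list members that follow. Without siR-2 replicate 1, 163 genes were called higher and 540 lower. Without it 21 of 25 cholesterol genes, 21 of 26 mitosis genes and 11 of 20 contractile genes were lower, and 13 of 24 unfolded protein and ATF4 genes and 15 of 22 heat-shock genes were higher. The median log2 fold change over all genes was -0.006. Most calls were moderate, with a median absolute log2 fold change of 0.82 among higher and 0.81 among lower calls, and 49 and 181 genes respectively differed at least 2-fold (log2 of 1). Many were also weakly expressed. A mean of at least 5 CPM was reached by 68 of the higher and 234 of the lower calls, and a mean of at least 100 CPM by 18 and 23. In 6 higher and 35 lower calls, 1 group was at or under the floor in all its libraries. The 3 libraries of 1 siRNA did not overlap those of the other in 161 of 167 higher and 604 of 620 lower calls. Among all genes tested 38.4% did not overlap. Protein-coding genes made up 80.2% of higher and 89.5% of lower calls, and 76.9% of all genes tested.

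**Figure D1:**
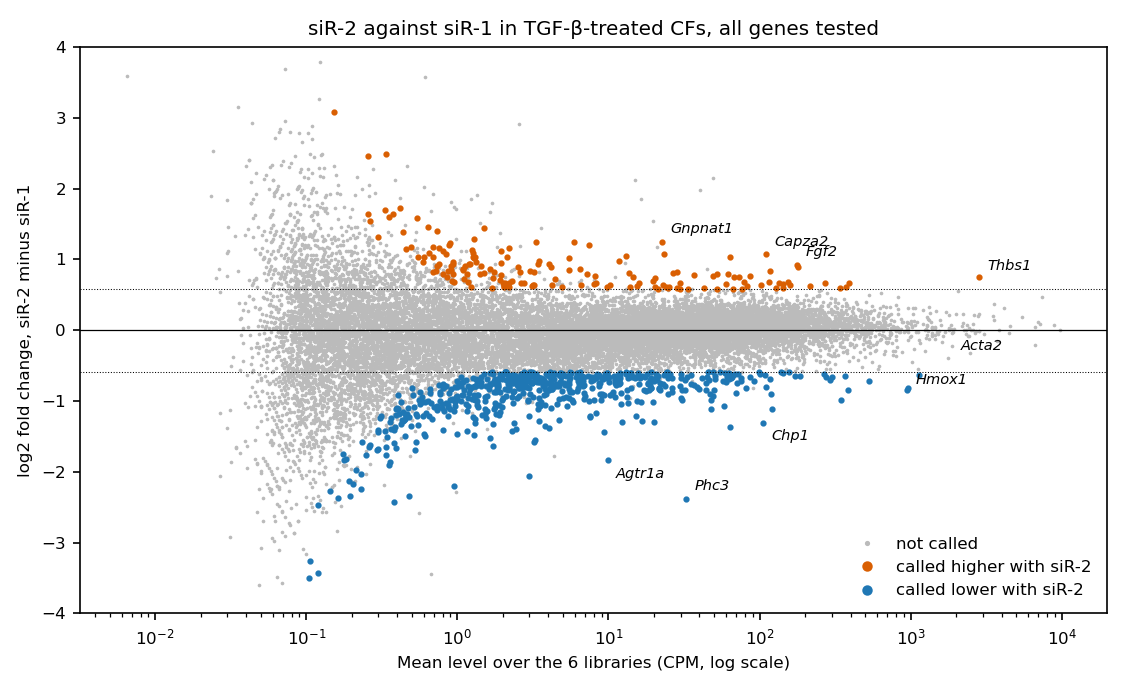
Each point is 1 of the genes tested, with its mean level over the 6 libraries (CPM, log scale) on the x axis and its log2 fold change, siR-2 minus siR-1, on the y axis. Orange points are the 167 genes called higher and blue points the 620 called lower with siR-2, dotted lines mark 0.585, and 59 genes lie beyond the y axis, which ends at 4 in both directions.

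Among the genes of at least 5 CPM with the highest log2 fold changes, several had siR-1 libraries below Scrambled and siR-2 libraries above. *Capza2* was at 70.8, 69.5 and 71.5 CPM in the 3 siR-1 libraries, 155, 148 and 145 CPM in the 3 siR-2 libraries and 125, 136 and 126 CPM in the 3 Scrambled libraries. *Capza2* (ENSMUSG00000015733) encodes a subunit of the actin-capping protein CapZ, and its 2.11-fold difference (log2 fold change 1.08, SE 0.0403, adjusted p = 5.35e-11) was accompanied by a level -0.87 from Scrambled with siR-1 and 0.21 with siR-2 on the log2 scale. Both siRNAs differed from Scrambled, in opposite directions. *Gnpnat1* was at 13.2, 12.6 and 14.5 CPM in the 3 siR-1 libraries, 29.1, 33.1 and 33.7 CPM in the 3 siR-2 libraries and 19.3, 16.3 and 20.1 CPM in the 3 Scrambled libraries. *Gnpnat1*, an acetyltransferase of the hexosamine pathway that makes UDP-GlcNAc, had a log2 fold change of 1.25 (SE 0.0828, adjusted p = 1.4e-08). In IL-17-treated CFs its replicates spread more widely and the siRNAs overlapped. They were at 30.6, 17.2 and 36.4 CPM for siR-1 and 24.8, 28.6 and 23.2 CPM for siR-2. *Chchd4*, which drives the oxidative import of proteins into the mitochondrial intermembrane space, was at 4.54 CPM with siR-1, 10.4 CPM with siR-2 and 8.32 CPM with Scrambled (1.20). *Spcs3*, a subunit of the signal peptidase, was at 122 CPM with siR-1, 231 CPM with siR-2 and 171 CPM with Scrambled (0.92), and *Ssb*, the La protein that binds the ends of RNA polymerase III transcripts, at 84.1 CPM with siR-1, 149 CPM with siR-2 and 128 CPM with Scrambled (0.83).

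*Fgf2* was at 124, 125 and 126 CPM in the 3 siR-1 libraries, 227, 228 and 244 CPM in the 3 siR-2 libraries and 147, 157 and 152 CPM in the 3 Scrambled libraries. *Fgf2*, a fibroblast mitogen that binds heparan sulfate, differed by 0.90 (SE 0.0373, adjusted p = 9.59e-11) between the siRNAs, and every siR-2 library was above every other library. It too was below Scrambled with siR-1 (-0.28) and above it with siR-2 (0.62), as were *P3h1*, a prolyl 3-hydroxylase of collagen, at 209 CPM with siR-1, 331 CPM with siR-2 and 246 CPM with Scrambled (0.66), and *Acsbg1*, an acyl-CoA synthetase, at 3.54 CPM with siR-1, 8.38 CPM with siR-2 and 5.66 CPM with Scrambled (1.24). For other genes siR-1 did not pass the test against Scrambled and siR-2 lay above both. *Thbs1* was at 2116, 2052 and 2150 CPM in the 3 siR-1 libraries, 3681, 3490 and 3509 CPM in the 3 siR-2 libraries and 2046, 2390 and 2279 CPM in the 3 Scrambled libraries. *Thbs1* encodes thrombospondin-1, a matrix glycoprotein that can activate latent TGF-β, and its level was 0.76 higher on the log2 scale (SE 0.0464, adjusted p = 6.16e-09). The siR-1 and Scrambled libraries overlapped for *Thbs1*. *Mgp*, an inhibitor of calcification in matrix, was at 118 CPM with siR-1, 190.5 CPM with siR-2 and 110.1 CPM with Scrambled (0.69) and *Cth*, which makes cysteine from cystathionine, at 4.59 CPM with siR-1, 8.39 CPM with siR-2 and 4.96 CPM with Scrambled (0.87). *Fosl1*, a subunit of the AP-1 transcription factor, was at 15 CPM with siR-1, 31.5 CPM with siR-2 and 11.2 CPM with Scrambled (1.07), with siR-2 libraries between 29.04 and 33.3 CPM. *Mmd* (89.1 CPM with siR-1, 143 CPM with siR-2 and 70.5 CPM with Scrambled, 0.68) and the peptide hormone gene *Cck* (3.63 CPM with siR-1, 7.398 CPM with siR-2 and 1.996 CPM with Scrambled, 1.03) were above Scrambled with both siRNAs. *Serinc5* (8.56 CPM with siR-1, 17.7 CPM with siR-2 and 21.03 CPM with Scrambled, 1.04) was below Scrambled with both siRNAs.

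*Chp1* was at 156, 152 and 141 CPM in the 3 siR-1 libraries, 56.7, 64.3 and 59.6 CPM in the 3 siR-2 libraries and 139, 133 and 136 CPM in the 3 Scrambled libraries. *Chp1*, a calcium-binding partner of the Na+/H+ exchangers, was 2.48-fold lower with siR-2 (log2 fold change -1.31, SE 0.0473, adjusted p = 5.35e-11). It lay 0.14 above Scrambled with siR-1 and -1.17 from it with siR-2 on the log2 scale. *Hsd17b7* was at 174, 165 and 157 CPM in the 3 siR-1 libraries, 75.1, 76.3 and 76.97 CPM in the 3 siR-2 libraries and 108, 118 and 103.7 CPM in the 3 Scrambled libraries. *Hsd17b7*, a reductase of cholesterol synthesis, lay above Scrambled with siR-1 and below it with siR-2, and the siRNAs differed by -1.12 (SE 0.0471, adjusted p = 9.59e-11). *Agtr1a* was at 15.6, 16.3 and 14.4 CPM in the 3 siR-1 libraries, 4.22, 4.32 and 4.52 CPM in the 3 siR-2 libraries and 6.91, 7.51 and 6.67 CPM in the 3 Scrambled libraries. *Agtr1a* encodes the type 1 angiotensin II receptor, the receptor through which angiotensin II acts on fibroblasts and vessels. Its difference between the siRNAs was -1.83 (SE 0.0871, adjusted p = 4.81e-10), and siR-2 lay below Scrambled while siR-1 lay above it. In untreated and IL-17-treated CFs no library held more than 65 estimated counts of *Agtr1a*, against 438 to 1747 in the 9 TGF-β libraries.

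Another set lay below Scrambled with siR-2 by at least 0.605 on the log2 scale, and with siR-1 differed from it by at most 0.359 in either direction. It held *Fndc1* (459 CPM with siR-1, 232 CPM with siR-2 and 516 CPM with Scrambled, -0.98), *Gstt1*, a glutathione S-transferase (13.7 CPM with siR-1, 5.05 CPM with siR-2 and 15.7 CPM with Scrambled, -1.44), *Gldc*, the decarboxylase of the glycine cleavage system (17.6 CPM with siR-1, 7.13 CPM with siR-2 and 15.1 CPM with Scrambled, -1.30), *Klhdc7a* (10.5 CPM with siR-1, 4.501 CPM with siR-2 and 13.5 CPM with Scrambled, -1.22) and *Cemip*, a hyaluronan-binding protein needed for hyaluronan breakdown (1221 CPM with siR-1, 695 CPM with siR-2 and 1057 CPM with Scrambled, -0.81). A further set lay above Scrambled with siR-1. It held *Steap4*, a metalloreductase (91.9 CPM with siR-1, 35.6 CPM with siR-2 and 42.3 CPM with Scrambled, -1.37), *Sema3c*, a secreted semaphorin (156 CPM with siR-1, 83.05 CPM with siR-2 and 68.8 CPM with Scrambled, -0.91), and *Epas1*, the HIF-2α transcription factor (492 CPM with siR-1, 275 CPM with siR-2 and 319 CPM with Scrambled, -0.84). The chemokine gene *Ccl20* (23.7 CPM with siR-1, 9.76 CPM with siR-2 and 11.3 CPM with Scrambled, -1.28), the kinase gene *Sik1* (11.4 CPM with siR-1, 5.08 CPM with siR-2 and 5.81 CPM with Scrambled, -1.17) and *Asic3*, an acid-sensing channel (10.6 CPM with siR-1, 4.57 CPM with siR-2 and 5.73 CPM with Scrambled, -1.21), were in it too. *Gbp4*, an interferon-inducible GTPase, had 16.1, 22.1 and 25.5 CPM for siR-1 and 11.1, 8.78 and 7.54 CPM for siR-2 (log2 fold change -1.22, SE 0.252, adjusted p = 0.0133), and it was not past the test without siR-2 replicate 2.

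*Phc3*, a Polycomb group gene, had the largest difference among called genes of at least 5 CPM without overlap. Symbols of Gm plus a number or with Rik, -ps or -rs at the end were left out of this ranking. *Phc3* was at 53.1, 58.8 and 52.9 CPM for siR-1, 11.5, 8.86 and 11.3 CPM for siR-2 and 7.498, 8.53 and 9.35 CPM with Scrambled (log2 fold change -2.38). In untreated CFs the Scrambled libraries held 7672, 8327 and 7305 estimated counts, siR-1 7385, 7294 and 7924 and siR-2 1372, 1446 and 1409. In IL-17-treated CFs siR-1 held 1770, 6916 and 1619 and siR-2 1580, 6755 and 6377. Across the 27 libraries the values fell into a low and a high range with none between, and in IL-17-treated CFs replicates of 1 siRNA fell into both. How much the assignment of reads to the annotated transcripts contributed was not tested.

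**Figure D2:**
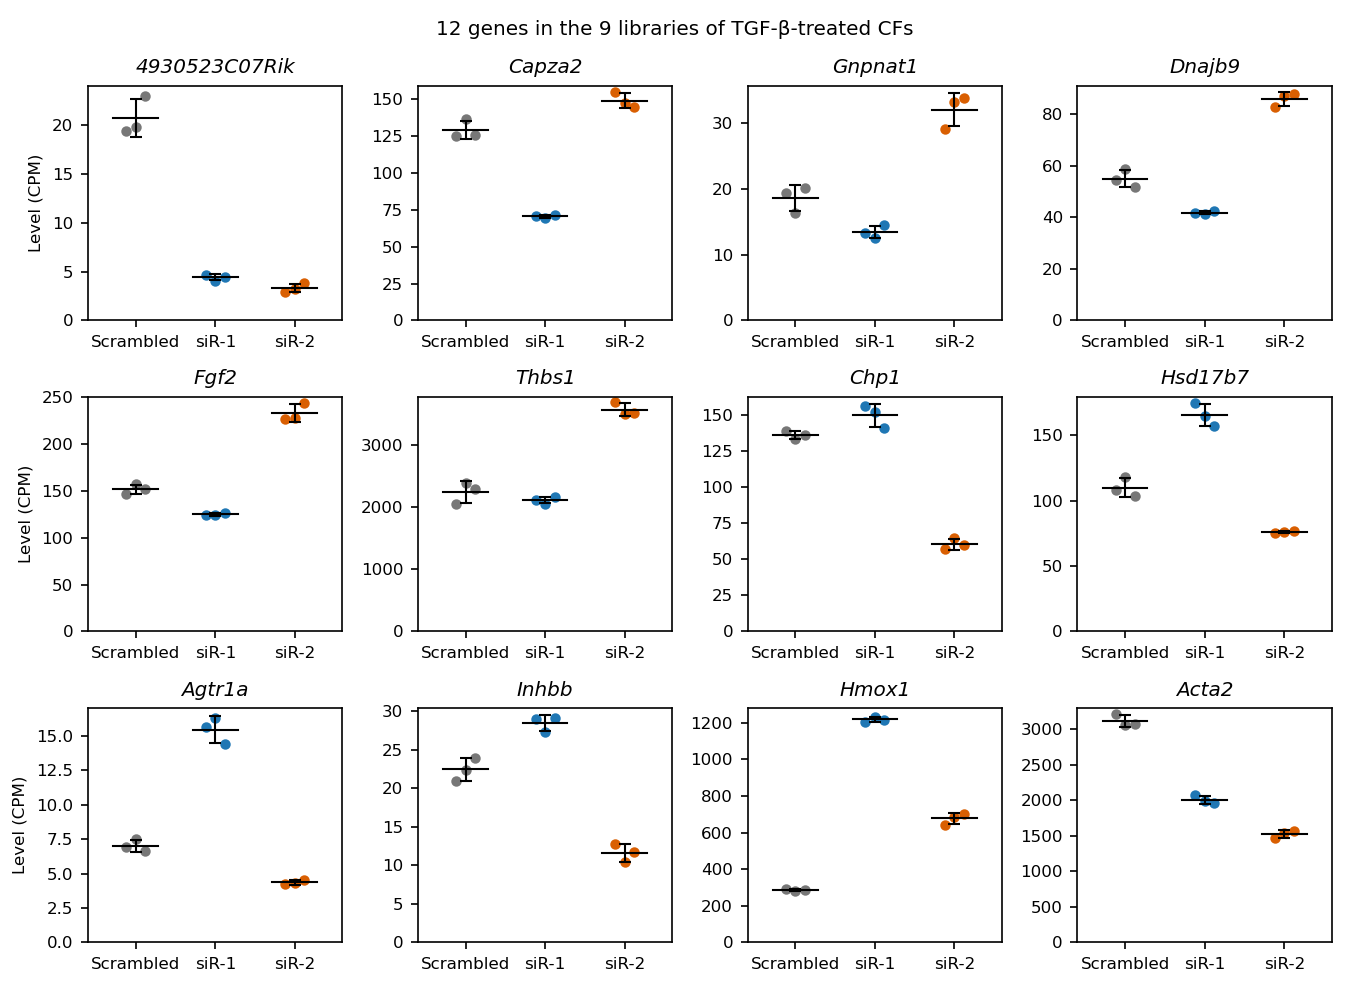
Levels of 12 genes (CPM, each y axis from 0) in the 9 libraries of TGF-β-treated CFs, with a point per library, a line at the mean and bars of 1 SD (n = 3 per group). *Capza2*, *Gnpnat1*, *Dnajb9*, *Fgf2* and *Thbs1* are higher with siR-2 than with siR-1, the other 7 genes are lower with siR-2, and the Scrambled libraries lie above, between or below depending on the gene.

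Cells make cholesterol from acetyl-CoA through the mevalonate pathway, and SREBP transcription factors, released when sterols in the endoplasmic reticulum are low, act on nearly all of its genes together. Of 25 genes of this list, 23 were lower with siR-2 than with siR-1 at an adjusted p of 0.05 and none was higher, against 12% lower among all genes. The list median was -0.32, and *Dhcr7* (-0.63) and *Lss* (-0.59) were among the few that also passed the fold limit. *Hmgcs1*, which makes HMG-CoA, was at 290.5, 296 and 283 CPM for siR-1, 203, 226 and 209 CPM for siR-2 and 255, 279.8 and 256 CPM with Scrambled (log2 fold change -0.45, SE 0.0441, adjusted p = 1.11e-06). *Sqle*, which makes squalene epoxide, was at 148 CPM with siR-1, 111 CPM with siR-2 and 137 CPM with Scrambled (-0.42). The fatty acid enzymes *Fasn* (-0.17), *Scd1* (-0.24) and *Elovl6* (-0.37) were also lower. Of the regulators, *Srebf2* was lower (-0.097) and *Srebf1* (0.052, adjusted p = 0.375) did not pass the test. Measured against Scrambled in the same fit, 17 of the 25 genes lay above and 1 below it for siR-1, where 11.7% and 11.4% of all genes did so. For siR-2 the list counts were 2 above and 14 below Scrambled, against 15.1% and 14.8% of all genes. These comparisons share libraries with the direct contrast. In untreated CFs the direction was the opposite for most of the list, with 16 genes higher and 3 lower with siR-2 (median 0.14), and in IL-17-treated CFs 18 higher and 4 lower (median 0.20). Among all genes 22.7% were higher and 22.8% lower in untreated CFs, and 23.1% in each direction with IL-17. *Mvd*, for example, was -0.58 under TGF-β, 1.29 in untreated and 1.44 in IL-17-treated CFs. The difference between TGF-β and untreated CFs was itself past an adjusted p of 0.05 for 18 genes in the lower and 2 in the higher direction, where 15.1% and 13.8% of all 20560 genes tested were.

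Promoters in RefSeq (GRCm38.p6, 250 bases before to 50 after the start) were searched on both strands for the sterol regulatory element in the spelling TCACNCCAC, to show the kind of site the pathway is known for. It was found in 1 of 16 list genes with a promoter entry and in 1.44% of 27025 genes. The match is printed with the motif in capitals, and it is a match of letters, not a measured site.
Hmgcs1 promoter, chr13:119690206-119690230, plus strand: tcaccgtcTCACCCCACttcccagg

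Genes of mitosis are switched on together late in the cell cycle, through a promoter element known as the CHR that a repressor complex occupies in resting cells. All 26 genes of the mitosis list had a negative log2 fold change, 24 of them past an adjusted p of 0.05, and the median was -0.46. Among all genes 12% were lower at that limit. *Mki67*, the proliferation marker Ki-67, was at 16.9, 19.3 and 19.2 CPM for siR-1, 11.2, 12.8 and 13.7 CPM for siR-2 and 22.1, 25.9 and 28.7 CPM with Scrambled. The groups did not overlap, and the siR-2 libraries were the lowest of the table (log2 fold change -0.56, SE 0.0943, adjusted p = 0.000364). *Top2a*, the topoisomerase that untangles chromosomes, was at 35.4 CPM with siR-1, 23.9 CPM with siR-2 and 52.5 CPM with Scrambled (-0.57), and *Tpx2* (-0.61), *Nusap1* (-0.67), *Cenpe* (-0.75) and *Ttk* (-0.76), which act at the spindle and the kinetochore, passed the fold limit too. The 2 genes that did not pass the test were *Birc5* (-0.29, adjusted p = 0.0528) and *Kif20a* (-0.11, adjusted p = 0.261). Against Scrambled, 25 of 26 were lower with siR-1 and 26 with siR-2. Of 28 genes of S phase and replication, 14 were lower with siR-2 and none higher, with a median of -0.28. *Prim1*, the primase subunit (-0.85), and *Uhrf1*, which maintains DNA methylation (-0.67), were called, while the clamp gene *Pcna* was at 50.6 against 53.6 CPM (0.083, adjusted p = 0.257). Among CDK inhibitors, D cyclins and p53 targets, 6 of 20 were lower and none higher, *Cdkn2a* (-0.47) among them. Without siR-2 replicate 2, 1 was higher. *Cdkn1a* was at 524 against 493 CPM (-0.087, adjusted p = 0.0561). The mitosis genes were also lower with siR-2 in the other tables, by more. All 26 passed an adjusted p of 0.05 in untreated and in IL-17-treated CFs, with medians of -0.921 and -0.923. Lower genes made up 22.8% and 23.1% of all genes there. The difference between tables was past the test, toward higher values under TGF-β, for 18 genes against untreated and 19 against IL-17-treated CFs. Among all genes 13.8% were higher and 15.1% lower in the former, and 15.2% and 14.5% in the latter. Over genes of at least 5 CPM the contrast was also narrower under TGF-β (SD 0.244 against 0.482 untreated and 0.481 with IL-17). How much of the list's change this narrowing made up was not tested.

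The CHR, spelled TTTGAA and searched on both strands in the same RefSeq windows, was found in 16 of 21 mitosis genes with a promoter entry and in 20.2% of 27025 genes. A match from each of 4 genes is printed, with the motif in capitals. Each is a match of letters, not a measured site, and its part in the lower levels with siR-2 was not tested.
Mki67 promoter, chr7:135716482-135716503, minus strand: cgccagaaTTTGAAccgccgtt
Cdk1 promoter, chr10:69352914-69352935, minus strand: gcggcgagTTTGAAactgctgg
Cdc20 promoter, chr4:118437348-118437369, minus strand: agttgggtTTTGAAggagccaa
Kif23 promoter, chr9:61946784-61946805, minus strand: ttggcctgTTTGAAatgcgccg

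When unfolded proteins build up in the endoplasmic reticulum or amino acids run short, cells raise chaperones through ATF6 and XBP1 and amino acid enzymes through ATF4. Of 24 genes of this list, 14 were higher with siR-2 and 2 lower, with a median of 0.28, where 12% of all genes were higher. *Dnajb9* was at 41.5, 41.4 and 42.4 CPM in the 3 siR-1 libraries, 82.9, 86.8 and 87.9 CPM in the 3 siR-2 libraries and 54.3, 58.6 and 51.9 CPM in the 3 Scrambled libraries. *Dnajb9*, a cochaperone induced by XBP1, had the largest log2 fold change of the list (log2 fold change 1.04, SE 0.0482, adjusted p = 3.78e-10). The amino acid enzymes followed. *Mthfd2*, of mitochondrial folate metabolism, was at 36.4 CPM with siR-1, 62.03 CPM with siR-2 and 53.9 CPM with Scrambled (0.77), *Asns*, asparagine synthetase, at 104.5 CPM with siR-1, 165 CPM with siR-2 and 137 CPM with Scrambled (0.66), and *Phgdh*, the first enzyme of serine synthesis, at 80.2 CPM with siR-1, 125 CPM with siR-2 and 119.8 CPM with Scrambled (0.64). *Psat1* (0.56), *Shmt2* (0.40), *Trib3* (0.60), *Chac1* (0.58) and *Atf4* itself (0.35) were higher as well. *Hspa5*, the chaperone BiP, was at 715, 678 and 686 CPM for siR-1, 987, 961 and 944 CPM for siR-2 and 624, 627 and 619 CPM with Scrambled (0.47, adjusted p = 1.86e-08). Not all members moved together. The chaperones *Calr* (0.039), *Pdia6* (0.072), *Hyou1* (0.077) and *Pdia4* (-0.072) did not pass the test, and *Atf3* (-0.56) and *Ddit3*, which encodes CHOP (-0.19), were lower with siR-2. In the other tables the signs were mostly the other way, with 6 higher and 14 lower in untreated CFs (median -0.19) and 5 and 14 in IL-17-treated CFs (median -0.29). Among all genes 22.7% were higher and 22.8% lower in untreated CFs, and 23.1% in each direction with IL-17. The difference between TGF-β and untreated CFs was past the test in the higher direction for 19 of 24 genes and in the lower for 2, against 13.8% and 15.1% of all genes. *Dnajb9* was an exception, at 1.12 in untreated and 0.99 in IL-17-treated CFs.

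The CARE, the element ATF4 binds with C/EBP partners, was searched as TGATGNAA and found in 5 of 23 list genes with a promoter entry and in 4.51% of 27025 genes. The ER stress response element (ERSE), CCAAT and CCACG 9 bases apart, was found in 5 of 23 list genes and in 0.137% of genes. The list genes with an ERSE included *Calr* and *Pdia6*, which did not pass the test between the siRNAs and are not printed. Of the genes printed, with the motif in capitals, as its reverse complement where it lies on the opposite strand, *Asns*, *Trib3*, *Chac1* and *Hspa5* were higher with siR-2 and *Atf3* was lower, so that both directions occurred among genes with a match.
Asns promoter, chr6:7693217-7693240, minus strand: cagccacaTGATGAAActtcccgc
Trib3 promoter, chr2:152344031-152344054, minus strand: gctcaggtTTACATCAgccgggcg
Chac1 promoter, chr2:119351041-119351064, plus strand: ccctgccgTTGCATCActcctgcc
Atf3 promoter, chr1:191183428-191183451, minus strand: tctcgcacTTGCATCAccaagtcc
Hspa5 promoter, chr2:34772020-34772048, plus strand: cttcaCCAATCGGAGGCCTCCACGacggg

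The study placed IAMP beside HSP90, a chaperone that keeps kinases and other client proteins folded. Of 22 genes of this list, 15 were higher with siR-2 and 2 lower, with a median of 0.20, against 12% of all genes in each direction. None passed the fold limit in the higher direction. *Hsp90ab1* was at 1559, 1563 and 1590 CPM for siR-1, 1888, 1906 and 1839 CPM for siR-2 and 1589, 1558 and 1663 CPM with Scrambled (0.26, adjusted p = 1.89e-05), and *Hsp90aa1* at 559 CPM with siR-1, 650.3 CPM with siR-2 and 556 CPM with Scrambled (0.22). The mitochondrial chaperonin genes *Hspd1* (0.43) and *Hspe1* (0.32) and the HSP90 cochaperone *Ahsa1* (0.40) were higher too. *Hspa1a* (22.8 CPM with siR-1, 15.2 CPM with siR-2 and 22.9 CPM with Scrambled, -0.58) and *Hspa1b* (55.2 CPM with siR-1, 34.99 CPM with siR-2 and 55.2 CPM with Scrambled, -0.66), the inducible HSP70 genes, were lower. Their sequences are nearly identical, so reads can be split between them and neither value is certain on its own. In untreated CFs 17 of 22 were higher and 5 lower, and in IL-17-treated CFs 14 and 4, where all genes stood at 22.7% higher and 22.8% lower in the former and 23.1% each way in the latter.

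Smooth-muscle actin and its partners define the contractile myofibroblast, under the control of SRF and its MRTF cofactors. Of 20 contractile genes, 11 were lower with siR-2 and none was higher, against 12% of all genes in each direction. The list median was -0.35. Without Scrambled replicate 3 or siR-2 replicate 2, 1 contractile gene was higher. *Acta2* was at 2074, 1998 and 1961 CPM in the 3 siR-1 libraries, 1466, 1547 and 1565 CPM in the 3 siR-2 libraries and 3214, 3065 and 3072 CPM in the 3 Scrambled libraries. *Acta2*, smooth-muscle α-actin, was below Scrambled with both siRNAs, and the siRNAs differed by -0.40 (SE 0.0358, adjusted p = 4.18e-07). *Tagln* was at 741 CPM with siR-1, 604 CPM with siR-2 and 1112 CPM with Scrambled (-0.30), *Cnn1*, calponin, at 6.87 CPM with siR-1, 3.57 CPM with siR-2 and 14.1 CPM with Scrambled (-0.94), *Lmod1*, leiomodin, at 10.6 CPM with siR-1, 5.36 CPM with siR-2 and 13.7 CPM with Scrambled (-0.98), *Mylk*, myosin light chain kinase, at 6.76 CPM with siR-1, 3.93 CPM with siR-2 and 7.37 CPM with Scrambled (-0.78) and *Tpm2*, a tropomyosin, at 106 CPM with siR-1, 66.9 CPM with siR-2 and 150.1 CPM with Scrambled (-0.67). *Myh11* (3.55 CPM with siR-1, 2.26 CPM with siR-2 and 4.197 CPM with Scrambled, -0.65) is in this list and among the smooth muscle and pericyte markers, of which *Notch3* was lower (-0.68) and *Cspg4* higher (0.59), and that marker list summed to 53.5 to 55.8 CPM for siR-1 and 56.3 to 57.8 CPM for siR-2. Its part in the result was not tested. *Srf* was lower (-0.19), and *Mrtfa* (0.080) and *Mrtfb* (0.009) did not pass the test. In untreated CFs 15 of 20 were lower with siR-2 and 1 was higher, against 22.8% and 22.7% of all genes. *Acta2* (-1.01) and *Tagln* (-1.34) were among the lower ones. The difference between the TGF-β and untreated tables was 0.60 (SE 0.0471, adjusted p = 8.84e-09) for *Acta2*, and the contrast over all genes was narrower under TGF-β too.

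The collagen list was split, with 5 of 22 higher, 8 lower and a median of -0.014, against 12% of all genes in each direction. The main fibrillar chains were close together. *Col1a1* was at 6988, 6907 and 7096 CPM for siR-1 and 7705, 7167 and 7447 CPM for siR-2 (0.089, adjusted p = 0.08), without overlap between the groups but not past the test. *Col1a2* was higher (0.18) and *Col3a1* lower, at 3931 CPM with siR-1, 3535 CPM with siR-2 and 2496 CPM with Scrambled (-0.15, not past the test without siR-1 replicate 3 or siR-2 replicate 2). *Col8a2* (11.4 CPM with siR-1, 6.13 CPM with siR-2 and 15.98 CPM with Scrambled, -0.90) and *Col6a3* (3.94 CPM with siR-1, 2.34 CPM with siR-2 and 4.81 CPM with Scrambled, -0.75) were called lower. This contrasted with untreated CFs, where 19 of 22 collagens were lower with siR-2 and 1 was higher (median -0.54), and the difference between the tables was past the test in the higher direction for 17 collagens. Of all genes 22.7% were higher and 22.8% lower in untreated CFs, and 13.8% passed the test of the difference in the higher direction. The contrast was also narrower over genes of at least 5 CPM under TGF-β (SD 0.244 against 0.482 in untreated CFs). The part of this narrowing in the collagen counts was not tested. For *Col1a1* the difference between the tables was 0.74 (SE 0.0416, adjusted p = 9.82e-11). *Postn*, periostin, a matricellular protein of activated fibroblasts, was at 889, 849 and 823 CPM for siR-1, 1021, 1077 and 1085 CPM for siR-2 and 1132, 1120 and 1107 CPM with Scrambled (0.31, adjusted p = 5.47e-06), against -0.84 in untreated and -0.88 in IL-17-treated CFs. *Ccn2*, or CTGF, was at 3272 CPM with siR-1, 3748 CPM with siR-2 and 3646 CPM with Scrambled (0.20), with -0.37 in untreated CFs.

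Of 30 other matrix proteins 10 were higher and 10 lower, against 12% of all genes in each direction. *Fn1*, fibronectin, was lower (-0.21), as were *Has2*, a hyaluronan synthase (5.4 CPM with siR-1, 3.04 CPM with siR-2 and 4.93 CPM with Scrambled, -0.83), and *Ogn*, osteoglycin (211 CPM with siR-1, 134 CPM with siR-2 and 216 CPM with Scrambled, -0.65), while *Fbln2*, a fibulin, was higher (0.37). Of 19 enzymes of collagen processing, *Plod2*, which hydroxylates lysines for stable cross-links (305 CPM with siR-1, 481 CPM with siR-2 and 612 CPM with Scrambled, 0.66), and *P3h1* were called higher, and *Lox* (0.055) did not pass the test. Of 23 proteases and inhibitors, 7 were higher and 10 lower, against the same 12% of all genes in each direction. The metalloproteases *Adamts1* (364 CPM with siR-1, 223 CPM with siR-2 and 261 CPM with Scrambled, -0.71), *Adamts4* (-0.60) and *Adamts9* (62.95 CPM with siR-1, 31.9 CPM with siR-2 and 31.6 CPM with Scrambled, -0.98) were lower with siR-2 than with siR-1, and siR-1 lay above Scrambled for each (0.48, 0.52 and 1.00). *Mmp9* was lower (-0.81) and *Mmp10* higher (0.61).

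Of 21 ligands, antagonists and latent binders, 9 were lower and 3 higher with siR-2, against 12% of all genes in each direction. *Inhbb* was at 28.99, 27.3 and 29.03 CPM in the 3 siR-1 libraries, 12.7, 10.4 and 11.7 CPM in the 3 siR-2 libraries and 20.9, 22.4 and 23.96 CPM in the 3 Scrambled libraries. *Inhbb*, the βB chain of activins and inhibins, had the largest difference among them (log2 fold change -1.29, SE 0.0752, adjusted p = 3.91e-09). *Bmp4* was at 56.7 CPM with siR-1, 31.5 CPM with siR-2 and 64.9 CPM with Scrambled (-0.85) and its antagonist *Nog* at 2.84 CPM with siR-1, 1.75 CPM with siR-2 and 1.699 CPM with Scrambled (-0.70), the latter not past the test when siR-1 replicate 2 or 3 or siR-2 replicate 2 was left out. Of the TGF-β genes themselves, *Tgfb1* was higher, at 182 CPM with siR-1, 213 CPM with siR-2 and 154 CPM with Scrambled (0.22), and *Tgfb2* (54.5 CPM with siR-1, 36.3 CPM with siR-2 and 68.3 CPM with Scrambled, -0.59) and *Tgfb3* (66.7 CPM with siR-1, 54.1 CPM with siR-2 and 100.4 CPM with Scrambled, -0.30) were lower. Of 13 receptors, 3 were higher and 3 lower, against the same 12% of all genes in each direction. *Tgfbr1* was at 28.2, 25.96 and 26.5 CPM for siR-1 and 37.5, 36.5 and 38.7 CPM for siR-2 (0.48, adjusted p = 9.97e-06), and *Tgfbr2* was at 199 against 198 CPM (-0.009, adjusted p = 0.899). *Bmpr2* was lower (-0.27).

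Of 22 SMADs and feedback targets, 4 were higher and 10 lower, against 12% of all genes in each direction. The Id genes, classical targets of BMP signalling that block basic helix-loop-helix factors, were all lower. *Id1* was at 11.7, 11.4 and 13.3 CPM for siR-1, 7.898, 7.204 and 7.84 CPM for siR-2 and 12.6, 14.6 and 16.5 CPM with Scrambled (log2 fold change -0.67, SE 0.097, adjusted p = 6.6e-05), *Id2* at 41.5 CPM with siR-1, 23.1 CPM with siR-2 and 28.9 CPM with Scrambled (-0.84), *Id3* at 124 CPM with siR-1, 92.7 CPM with siR-2 and 103.7 CPM with Scrambled (-0.42) and *Id4* at 2.495 CPM with siR-1, 1.09 CPM with siR-2 and 2.85 CPM with Scrambled (-1.19). In untreated CFs *Id1* (0.24) and *Id2* (0.33) had the other sign, and the change with TGF-β was -1.19 (SE 0.0652, adjusted p = 7.39e-11) for *Id2* and -0.93 (SE 0.0851, adjusted p = 6.96e-08) for *Id1*. *Smad3* (-0.46), the inhibitory *Smad6* (-0.40) and *Smad9* (-0.64, not past the test without siR-1 replicate 1) were lower, and *Smurf2*, a ubiquitin ligase of SMADs and receptors, was higher at 169.5 CPM with siR-1, 262 CPM with siR-2 and 161 CPM with Scrambled (0.63). *Smad7* was at 54.7 against 55.9 CPM (0.031, adjusted p = 0.698), and *Skil* and *Ski* did not pass the test either.

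Of 32 growth factors and receptors, 17 were lower with siR-2 and 6 higher, against 12% of all genes in each direction. Besides *Fgf2*, the EGF family ligands *Ereg* (0.46) and *Hbegf* (0.36) were higher. *Fgf18* (9.12 CPM with siR-1, 4.67 CPM with siR-2 and 8.64 CPM with Scrambled, -0.97), the receptor *Fgfr2* (3.88 CPM with siR-1, 1.96 CPM with siR-2 and 3.86 CPM with Scrambled, -0.99) and the IGF-binding proteins *Igfbp2* (-0.65), *Igfbp3* (140.4 CPM with siR-1, 80.9 CPM with siR-2 and 116 CPM with Scrambled, -0.80) and *Igfbp5* (-0.92) were lower, as were the PDGF receptors *Pdgfra* (-0.30) and *Pdgfrb* (-0.51). *Igfbp5* was 0.94 in IL-17-treated CFs.

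The 10 IL-17 pathway genes were the study's own choice on CFs of this series, so their direction against Scrambled is not independent evidence, and here all 10 were above Scrambled with both siRNAs at an adjusted p of 0.05. Of all genes 11.7% were above Scrambled with siR-1 and 15.1% with siR-2. Between the siRNAs 7 were higher with siR-2 and 1 was lower. *Il6* was at 142, 142 and 152 CPM for siR-1, 159, 166 and 151 CPM for siR-2 and 82.7, 87.5 and 80.02 CPM with Scrambled. The siR-1 and siR-2 libraries overlapped, and the difference (0.13, adjusted p = 0.0438) was not past the test in 7 of 16 alternative settings. *Mmp3* was at 2621 CPM with siR-1, 3060 CPM with siR-2 and 1502 CPM with Scrambled (0.22), *Cxcl5* at 2599 CPM with siR-1, 2987 CPM with siR-2 and 1446 CPM with Scrambled (0.20), *Ccl7* at 1234 CPM with siR-1, 1467 CPM with siR-2 and 602 CPM with Scrambled (0.25), *Cxcl3* at 15.7 CPM with siR-1, 20.2 CPM with siR-2 and 5.54 CPM with Scrambled (0.37) and *Mmp13* at 8.19 CPM with siR-1, 10.6 CPM with siR-2 and 2.68 CPM with Scrambled (0.37). *Cxcl1* was lower with siR-2, at 414 CPM with siR-1, 340.5 CPM with siR-2 and 212 CPM with Scrambled (-0.28). *S100a8* was called, at 0.884, 0.607 and 0.858 CPM for siR-1 and 1.28, 2.05 and 1.08 CPM for siR-2 (0.91, adjusted p = 0.0278), on 65 to 209 estimated counts, and was not past the test without any 1 of the siR-1 libraries or without siR-2 replicate 2. *Cebpb* (0.050) and *Ccl11* (0.21) did not pass it.

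Of 29 cytokines and chemokines, 7 were higher and 7 lower, against 12% of all genes in each direction. *Ccl2* was at 1665, 1637 and 1681 CPM for siR-1 and 2493, 2503 and 2323 CPM for siR-2 (0.55, adjusted p = 1.05e-08) and *Csf1* at 3706 CPM with siR-1, 4619 CPM with siR-2 and 3693 CPM with Scrambled (0.32). *Ccl5* (32.4 CPM with siR-1, 17.4 CPM with siR-2 and 18.6 CPM with Scrambled, -0.90), *Ccl9* (-0.65) and *Cxcl12* (173 CPM with siR-1, 114 CPM with siR-2 and 164 CPM with Scrambled, -0.60) were called lower. *Il1b* was called too, on 11 to 18 estimated counts with siR-1 and 0 in every siR-2 library, all at or under the floor, so no fold is given. Of 22 NF-κB genes 2 were higher and 7 lower, against 12% of all genes in each direction. None of them passed the fold limit, with *Nfkbia* at -0.20 and *Vcam1* at 0.31. Without siR-1 replicate 3, 4 were lower. Of 28 interferon-stimulated genes 2 were higher, *Isg15* (0.38) and *Bst2* (0.12), and 1 was lower, *Irf7* (-0.30), against 12% of all genes in each direction. The higher count was 0 without siR-1 replicate 1 or without siR-2 replicate 1 or 2, 1 without siR-1 replicate 2 or any 1 Scrambled library, and 4 without siR-2 replicate 3.

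*Hif1a*, whose protein the study followed, was at 524, 503 and 505 CPM for siR-1, 439, 466 and 491 CPM for siR-2 and 358, 408 and 372 CPM with Scrambled (-0.14, adjusted p = 0.0464), and was not past the test in 7 of 16 alternative settings. Of 24 HIF-1 targets 2 were higher with siR-2 and 6 lower, with a median of -0.065, against 12% of all genes in each direction. Only 1 was higher when siR-1 replicate 2 or 3 or any 1 of the siR-2 libraries was left out. The lower genes included *Egln3* (11.4 CPM with siR-1, 7.45 CPM with siR-2 and 5.79 CPM with Scrambled, -0.62), a prolyl hydroxylase of HIF-α, *Pdk1* (-0.54), which restrains pyruvate oxidation, and *Bnip3* (-0.42), of mitophagy. In untreated CFs 17 were higher and 4 lower (median 0.34). The difference between the TGF-β and untreated tables was past the test in the lower direction for 18 of 24. The shares of all genes were 22.7%, 22.8% and 15.1%. The part in this of the narrower contrast over all genes under TGF-β was not tested. Set against Scrambled under TGF-β, 14 of the 24 targets lay above it and 1 below for siR-1. For siR-2, 13 lay above and 3 below. The background was 11.7% above and 11.4% below for siR-1, and 15.1% and 14.8% for siR-2. Summed over the list, where abundant genes weigh most, levels were 10430 to 10720 CPM for siR-1, 12490 to 13120 CPM for siR-2 and 9630 to 9839 CPM with Scrambled.

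NRF2 drives antioxidant and glutathione genes. Of 21 targets 8 were higher and 5 lower with siR-2, against 12% of all genes in each direction, and 5 were higher without siR-1 replicate 3. In the same fit 19 were above Scrambled with siR-1 and 17 with siR-2, against 11.7% and 15.1% of all genes. *Hmox1* was at 1205, 1233 and 1217 CPM in the 3 siR-1 libraries, 641, 688 and 702 CPM in the 3 siR-2 libraries and 290.5, 281 and 286 CPM in the 3 Scrambled libraries. *Hmox1*, heme oxygenase-1, lay above Scrambled with both siRNAs, and less so with siR-2 (log2 fold change -0.85, SE 0.0357, adjusted p = 9.59e-11). *Gstm1* was at 660.5 CPM with siR-1, 401 CPM with siR-2 and 400.2 CPM with Scrambled (-0.72), and *Gsta1* (2.47 CPM with siR-1, 3.82 CPM with siR-2 and 1.29 CPM with Scrambled, 0.63) and *Gsta2* (0.79), near-identical paralogs whose reads may be shared, were higher, *Gsta2* not past the test in 5 of 16 alternative settings. *Nqo1* was at 76.2 against 73.4 CPM (-0.054, adjusted p = 0.614). *F3*, tissue factor, was lower, at 93.98 CPM with siR-1, 57.1 CPM with siR-2 and 61.6 CPM with Scrambled (-0.72), and *Plaur*, the urokinase receptor, higher, at 41.5 CPM with siR-1, 62.3 CPM with siR-2 and 37.2 CPM with Scrambled (0.58), in a coagulation list with 6 higher and 5 lower of 16. Of 13 genes of the small-RNA machinery that siRNAs pass through, 4 were lower and none higher, against 12% of all genes in each direction. None was lower without siR-1 replicate 2, and 2 were without siR-1 replicate 3 or siR-2 replicate 3. *Ago2* (0.004, adjusted p = 0.972) and *Dicer1* (0.036) did not pass the test. Of the 11 small proline-rich and proliferin genes tested, *Sprr1a* was higher (0.37, not past the test without siR-1 replicate 2 or 3 or siR-2 replicate 1 or 3) and *Sprr2g* lower, at 2.77 CPM with siR-1, 1.67 CPM with siR-2 and 0.562 CPM with Scrambled (-0.73, not past the test without siR-1 replicate 3). These families have close copies, and the split of their reads is uncertain.

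The untreated and IL-17 tables hold other libraries of the same 2 siRNAs, so they repeat the contrast without sharing a sample. There 3121 and 3122 genes were called between siR-2 and siR-1 (15.9% of 19669 and 15.7% of 19906 tested), against 787 under TGF-β (3.96%). The target 4930523C07Rik had means of 4.404 (siR-1), 3.311 (siR-2) and 20.73 CPM (Scrambled) under TGF-β. In the same order they were 2.998, 1.821 and 23.51 CPM untreated, and 2.583, 1.724 and 18.67 CPM with IL-17. Relative to Scrambled of the same table, both siRNAs therefore left more of the target under TGF-β. The part of this weaker knockdown in the fewer calls and the narrower contrast was not tested. The tables were similar in spread, with a biological coefficient of variation of 0.1405 under TGF-β, 0.1295 in untreated and 0.1307 in IL-17-treated CFs. Over 10686 genes of at least 5 CPM the SD of the log2 fold changes was 0.244 under TGF-β and 0.482 in untreated CFs, and the Pearson r between them across genes was 0.51 (Spearman 0.49). With IL-17 the r over 10688 genes was 0.47 (Spearman 0.44). Genes are not independent replicates, and these values carry no test. By direction, 5.72% were called higher and 10.1% lower in untreated CFs, and 6.07% and 9.62% with IL-17. Of genes tested in both, 54 were called higher under TGF-β and in untreated CFs, 33.8% of the TGF-β calls and 4.95% of the untreated ones, and 313 were called lower in both, 52.2% and 15.9%. A further 9 higher and 12 lower calls were called in the opposite direction in untreated CFs. With IL-17, 50 higher calls (31.2% and 4.23%) and 273 lower calls (45.3% and 14.5%) were shared, and 14 and 22 were opposite. Genes that repeated in all 3 tables included *Capza2* (1.08 under TGF-β, 2.18 untreated and 2.17 with IL-17), *Chp1* (-1.31, -2.45 and -2.33), *Hsd17b7* (-1.12, -2.27 and -2.06), *Gstt1* (-1.44, -2.66 and -2.97), *Dnajb9* and *Fgf2* (0.90, 0.99 and 0.90).

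**Figure D3:**
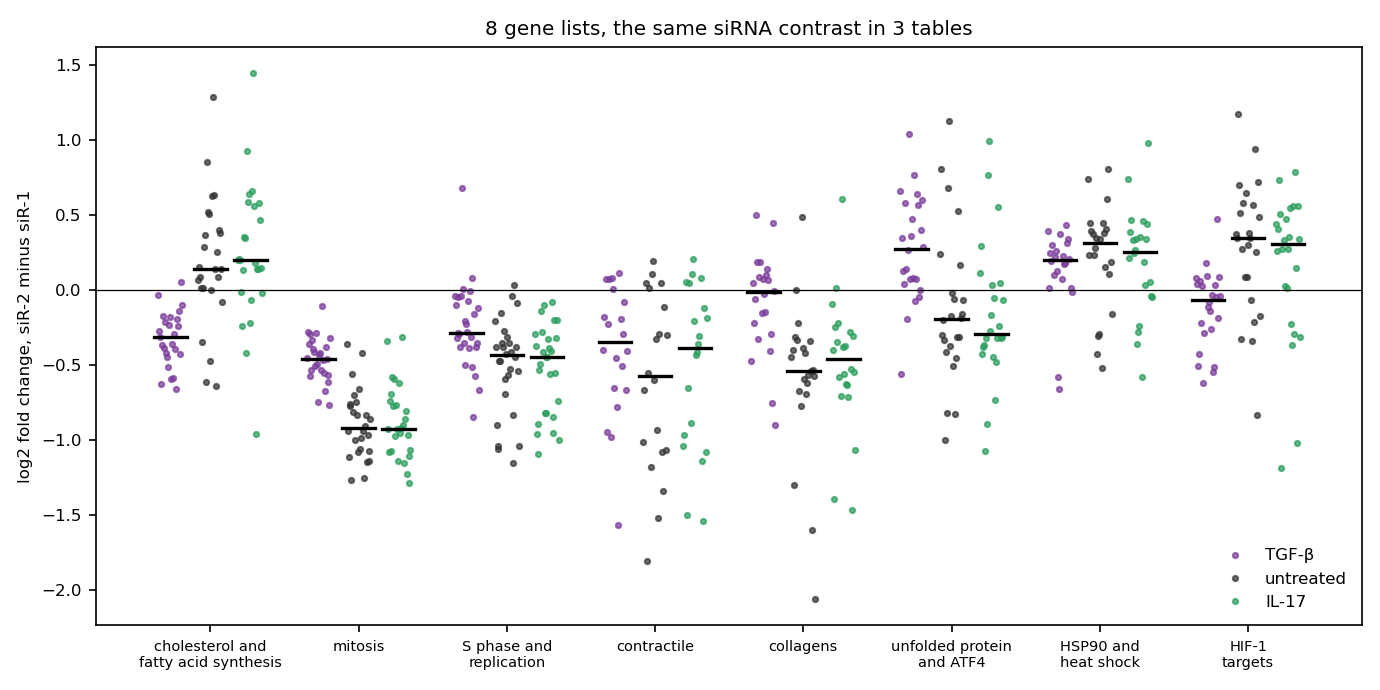
The log2 fold change, siR-2 minus siR-1 (y axis), of each gene of 8 lists in TGF-β-treated, untreated and IL-17-treated CFs, with a point per gene and a bar at the list median. Mitosis genes lie below 0 in all 3 tables, while cholesterol synthesis genes have a median of -0.32 under TGF-β and 0.14 in untreated CFs.

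**Figure D4:**
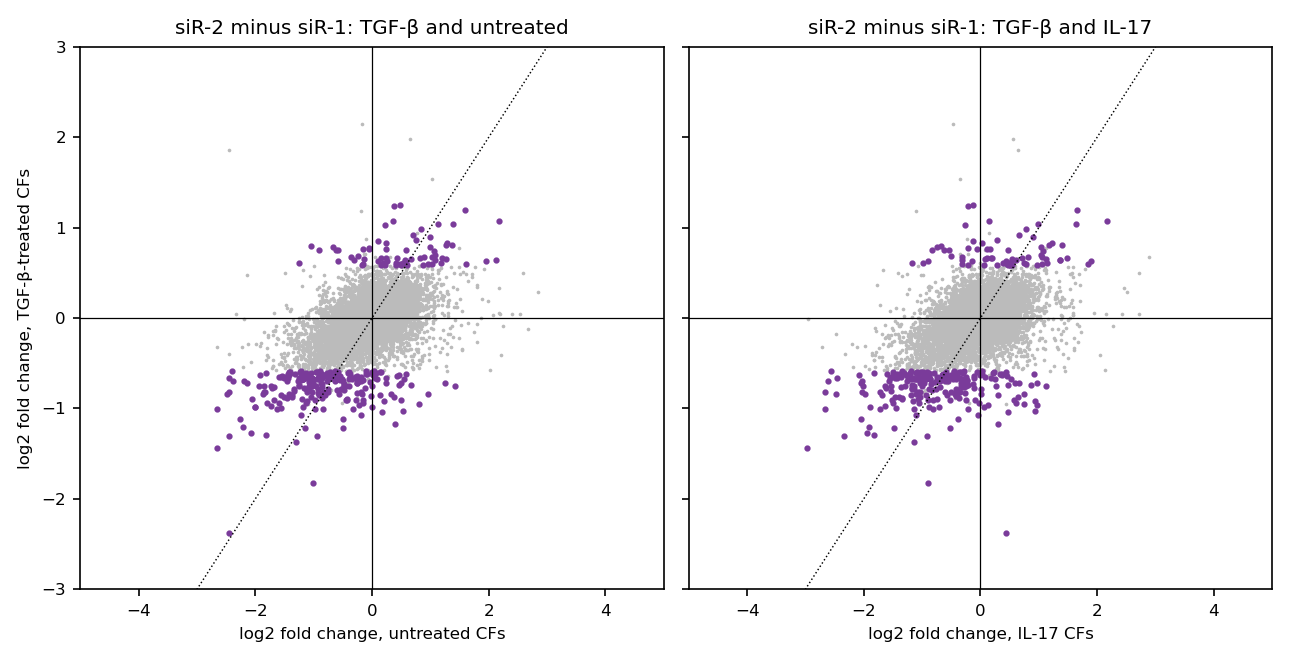
The log2 fold change, siR-2 minus siR-1, under TGF-β (y axis) against that in untreated (left) and IL-17-treated CFs (right), with a point per gene of at least 5 CPM and the genes called under TGF-β in purple. The dotted line marks equal values, 1 and 1 genes lie beyond the axes, and the cloud is flatter than this line, with an SD of 0.244 under TGF-β against 0.482 in untreated CFs.

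Whether the siRNA difference itself differed was tested as a difference of differences, called at an adjusted p of 0.05 and an absolute value of at least 1. Against untreated CFs this value was higher under TGF-β for 359 genes and lower for 406 (1.75% and 1.97% of 20560), and against IL-17-treated CFs 361 and 437 (1.74% and 2.11% of 20705). The 2 tests share the TGF-β libraries. Because the contrast was narrower over all genes under TGF-β, a gene with a large difference in the other table can enter these counts by that narrowing. Each stimulus is also a separate deposited table, so stimulus and table cannot be told apart. *Piezo2*, a mechanically gated ion channel, was at 24.3, 22.8 and 23.9 CPM for siR-1 and 3.87, 3.25 and 4.17 CPM for siR-2 in untreated CFs, and at 28.9, 24.7 and 25.3 and 20.98, 21.8 and 20.2 CPM under TGF-β. The siRNA difference of -2.65 was -0.32 under TGF-β, a change of 2.31 (SE 0.1099, adjusted p = 9.01e-12) in the joint fit of both tables. *Adamts8*, a secreted metalloprotease, had means of 4.46 and 0.9697 CPM in untreated and 11.5 and 11.4 CPM in TGF-β-treated CFs, a change of 2.17 (SE 0.187, adjusted p = 3.14e-08). *Meox1*, a homeobox factor of activated fibroblasts, turned from -1.49 in untreated to 0.49 under TGF-β, and *Pycr1*, the last enzyme of proline synthesis, from -1.18 to 0.53.

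In the other direction, *Alpl*, tissue-nonspecific alkaline phosphatase, was at 7.09, 6.12 and 6.46 CPM for siR-1 and 40.4, 35.9 and 37.8 CPM for siR-2 in untreated CFs, and at 13.2, 12.3 and 13.7 and 13.2, 12.97 and 14.2 CPM under TGF-β, where the groups overlapped. Its change was -2.51 (SE 0.0984, adjusted p = 6.26e-13). *Ackr3*, an atypical receptor that takes up CXCL12, was higher with siR-2 in untreated (2.03) and IL-17-treated CFs (2.14) and lower under TGF-β (-0.57). *Idh1*, the cytosolic isocitrate dehydrogenase, had means of 43.9 and 266 CPM in untreated and 167 and 236 CPM in TGF-β-treated CFs, and *Cd55*, an inhibitor of complement, 41.6 and 198 against 125 and 118 CPM. *Serpinb2*, the inhibitor PAI-2, had means of 3.73 and 23.3 CPM in untreated CFs and 1.27 and 1.299 CPM under TGF-β.

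**Figure D5:**
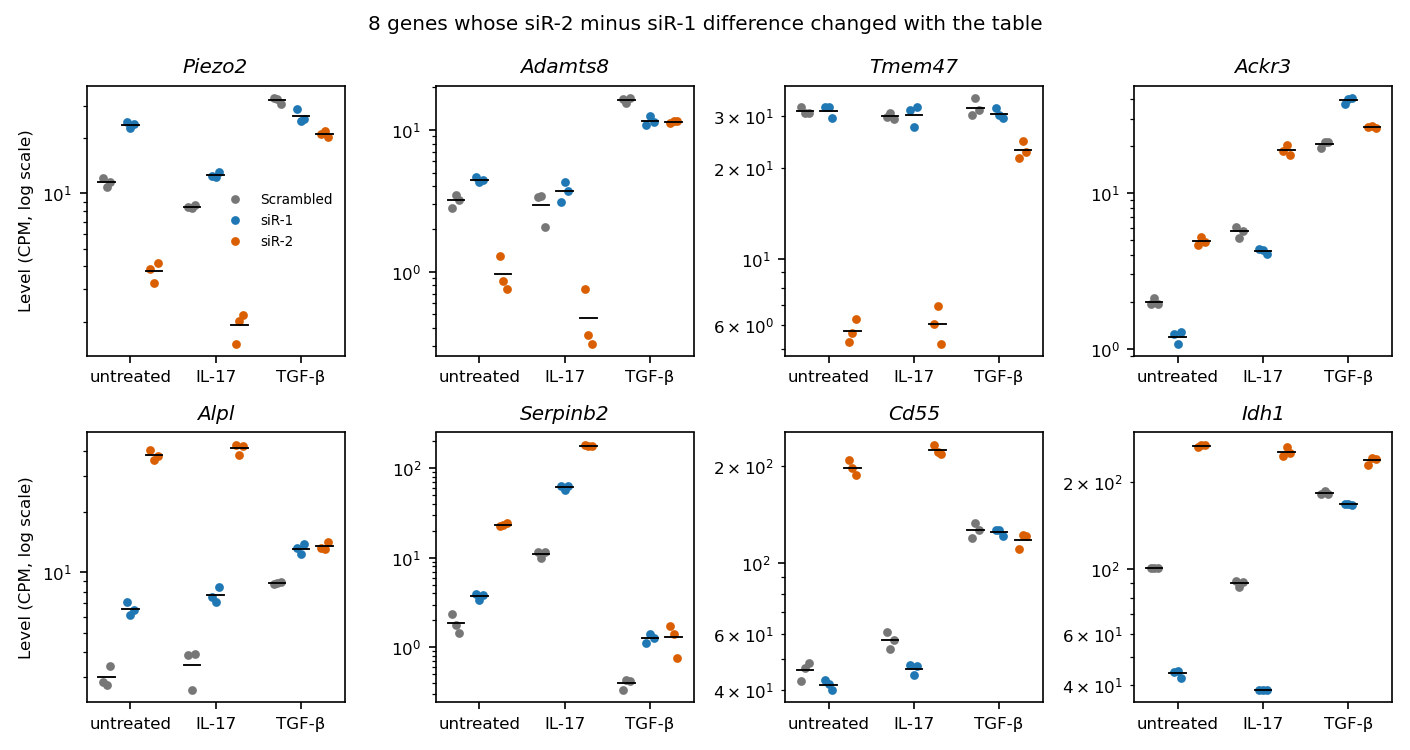
Levels of 8 genes (CPM, log scale) in untreated, IL-17-treated and TGF-β-treated CFs, with a point per library, colors for Scrambled, siR-1 and siR-2 and a line at each mean (n = 3). The siR-1 and siR-2 points lie apart in untreated and IL-17-treated CFs and closer together under TGF-β, as for *Alpl*, where the TGF-β means are 13.04 and 13.4 CPM.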

How the data were processed

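The labels name cutadapt, HISAT2, StringTie and DESeq2 with mouse build GRCm38, without versions. The authors deposited 1 table of estimated counts per stimulus, already whole numbers, for 55487 genes. How StringTie estimates became whole numbers, the strand setting and the annotation release are not given in the sources used here. Gene positions came from GENCODE vM21, which held 55141 of the gene identifiers.

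Counts were fitted per table over its 9 libraries in edgeR 4.0.16 (R 4.3.3) with TMM scaling, filterByExpr and robust quasi-likelihood tests, and p values were adjusted by Benjamini-Hochberg over all genes tested. Differences between stimuli were fitted over 12 libraries, 6 from each table. DESeq2 1.42.0 was an alternative, beside other scalings, filters, fold limits, a replicate block and leaving out each library. The scripts were tested on simulated data. The members and the gene lists were chosen with earlier results of these data known. Genes named were 4930523C07Rik and genes the study followed, the 12 largest called changes per direction of at least 5 CPM without overlap, 8 per direction of at least 100 CPM, list members, and 5 per direction for each difference between stimuli. Symbols of Gm plus a number or with Rik, -ps or -rs at the end were left out of the 12, 8 and 5. Other list members were named after their values were seen.

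Replicate numbers in the titles showed no pairing of the libraries. The siRNA sequences were not used here. Some genes are not reported here.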

Additional observations from a re-analysis of the deposited data

Results flagged for a closer look

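Each of these genes had a siRNA difference, siR-2 minus siR-1, that differed between TGF-β-treated CFs and another table by the test of that difference (edgeR, Benjamini-Hochberg adjusted). All values are differences of log2 fold changes, TGF-β minus the other table, and each table is a separate deposit, so that stimulus and table cannot be told apart.

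Against untreated CFs the difference was higher under TGF-β for *Piezo2* (2.31), *Adamts8* (2.17), *Tmem47* (2.03), *Meox1* (1.97) and *Prkar2b* (1.88). It was lower for *Psd3* (-2.81), *Serpinb2* (-2.63), *Ackr3* (-2.62), *Alpl* (-2.51) and *Adgrd1* (-2.38).

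Against IL-17-treated CFs the difference was higher for *Adamts8* (2.95), *Piezo2* (2.40), *Pycr1* (2.21), *Cd109* (1.98) and *Tmem47* (1.92). It was lower for *Ackr3* (-2.71), *Adgrd1* (-2.67), *Alpl* (-2.37), *Cd55* (-2.35) and *Idh1* (-2.21). Both tests used the same 6 TGF-β libraries, so a gene named against both tables was not tested on separate TGF-β samples.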

How the results depend on the processing

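Under DESeq2, other size factors, other filters, the siR-1 and siR-2 libraries alone and counts divided by 6, called genes ranged from 138 to 190 higher and from 587 to 667 lower. Leaving out 1 library gave 136 to 175 higher and 512 to 650 lower. The fold limit moved the counts most. A log2 limit of 1 left 49 higher and 181 lower, and adjusted p alone gave 2386 and 2393, so the excess of lower calls was absent without a fold limit. For the differences between stimuli, leaving out 1 TGF-β library gave 344 to 359 higher and 338 to 407 lower against untreated and 341 to 369 and 391 to 431 against IL-17-treated CFs. A limit of 0.585 gave 1007 and 940, and 1064 and 969.

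The replicate block gave 153 higher and 597 lower calls, 327 and 357 against untreated and 327 and 386 against IL-17-treated CFs. Deviations of same-numbered libraries correlated at -0.371 to 0.013, so the numbers showed no pairing of the samples. For differently numbered libraries the values ran from -0.073 to 0.386, the highest for siR-1 replicate 3 with siR-2 replicate 1. Another matching of the libraries was not tested.

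Of the comparisons of named genes with 16 alternatives each, 1932 kept their direction and side of the threshold, 41 lost and 4 gained the test, and 5 changed sign, all of genes not past the test under TGF-β. Leaving out 1 library gave -0.058 to 0.044 for *Adamts8*, which was also 0.005 without siR-2 replicate 1. The same gave -0.222 to 0.301 for *Serpinb2*, with negative values without siR-1 replicate 1, siR-2 replicate 1 and siR-2 replicate 2. Of the list counts 45 moved and 947 did not. Genes near the floor of 18 estimated counts, such as *Il1b*, were beyond what this depth resolves.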
